A study of Mus musculus with 27 samples.

Results

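This account covers the nuclear genes for the subunits of the mitochondrial respiratory chain and ATP synthase, together with the factors that assemble complex I, in mouse embryonic stem cells exposed to hydrogen peroxide (H2O2). Members were taken by gene symbol: names beginning with Nduf, Uqcr, Cox4 to Cox8 or Atp5, the genes Sdha, Sdhb, Sdhc and Sdhd, and no pseudogene suffix (-ps). Of 38352 genes listed, 110 carried such a name, 13 of them with the suffix. A further 5 (Ndufa11b, Cox4i2, Cox6a2, Cox8b and Cox8c) did not reach 1 FPKM (fragments scaled to transcript length and library size) in 3 of the 27 libraries. The 92 that remained, of 13614 genes that passed the same filter and were tested, comprise 38 complex I subunits, 8 complex I assembly factors, 4 subunits of complex II, 8 of complex III, 17 of complex IV and 17 of complex V. The suffix does not remove every pseudogene: Ndufb4c and Ndufs6b, counted with complex I, and Cox6c2, counted with complex IV, are 3 members annotated as processed pseudogenes. Ndufa4 and Ndufa4l2 were counted with complex IV, where the NDUFA4 protein is known to reside. The symbols choose by name, so they leave out cytochrome c and cytochrome c1, which were read in a separate list.

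Complex I (NADH dehydrogenase) and complex II (succinate dehydrogenase) pass electrons to coenzyme Q, complex III (cytochrome bc1) passes them to cytochrome c, and complex IV (cytochrome c oxidase) passes them to oxygen. Complexes I, III and IV pump protons, and complex V (ATP synthase) uses the gradient to make ATP. Every complex but II, which is wholly nuclear, has subunits coded by nuclear and by mitochondrial genes. Complexes I and III are known sources of superoxide, which is converted to H2O2. Naive embryonic stem cells are known to respire while also running glycolysis.

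The cells were E14Tg2a, a wild-type mouse embryonic stem cell line, on gelatin in serum medium with leukemia inhibitory factor and the 2i inhibitors. H2O2 was given for 30 min at 500 µM by the treatment protocol (the series text writes mM), and the medium was then exchanged for spent medium of untreated cells. There were 2 untreated groups (0 h and 24 h) and 7 treated ones: 0.5 h, which is the end of the exposure, every second hour from 2 h to 10 h, and 24 h. Each group held 3 biological replicates. The 0.5 h to 10 h groups share the untreated 0 h libraries as control, and the 24 h group was compared with untreated cells of 24 h, the only match in time. No group had the medium exchanged without H2O2, so from 2 h on the exchange, and up to 10 h also time in culture, cannot be told apart from the exposure. All cells are of 1 line, and in these bulk samples fewer cells of a type and less RNA per cell cannot be told apart.

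The 10 pluripotency markers read as a check (Pou5f1, Nanog and others) were detected in every group. The depth of the libraries is unknown, since FPKM carries no read number. In 4 libraries (untreated 0 h replicate 3, 2 h replicate 1, 8 h replicate 3 and 10 h replicate 3), earlier results of these data showed short and GC-rich transcripts to be high. The median respiratory gene in them lay 0.10 to 0.78 above its mean over all libraries on the log2(FPKM + 1) scale, against -0.27 to 0.25 in the other 23. The median of 82 cytosolic ribosomal protein genes lay 0.18 to 0.72 above its mean in those 4, against -0.32 to 0.27 in the other 23. By both measures the ranges of the 4 and of the others overlap. In untreated 0 h replicate 3, 88 of the 92 genes were above the mean of replicates 1 and 2, by a median of 0.89; Ndufs1, Sdha, Uqcrc2 and Atp5a1 were below it. Across the 92 genes, the first principal component held 74.5% of the variance, and 55.6% without those libraries. Because this control serves 6 comparisons, called results from 4 h to 10 h were also computed without the 4 libraries.

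**Figure D1:**
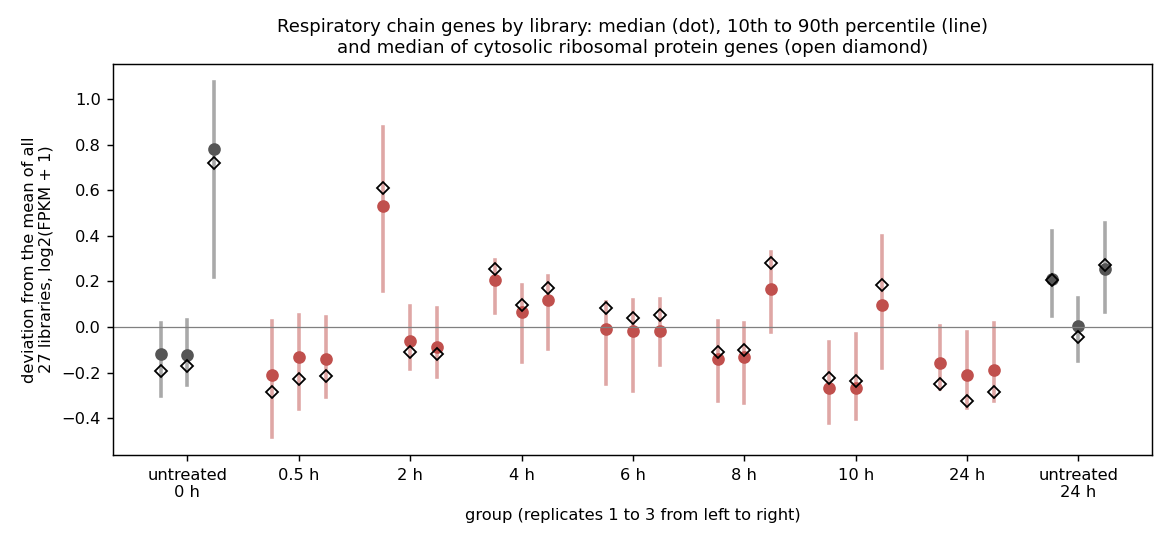
Deviation of each library from the mean of all 27 libraries, in log2(FPKM + 1), by group with replicates 1 to 3 from left to right. Dots are the median of the 92 respiratory genes, lines their 10th to 90th percentile, and open diamonds the median of 82 cytosolic ribosomal protein genes. Untreated 0 h replicate 3 (0.78) and 2 h replicate 1 (0.53) lie highest, and the diamonds move with the dots.

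Nuclear respiratory genes are known to be served by the transcription factors NRF1, the ETS family member GABP and YY1. Promoter windows of 300 bases (250 before the start, 50 after it) from RefSeq on GRCm38.p6 were found for 75 of the 92 genes, and letters were searched on both strands. GCGCATGCG, a form of the NRF1 motif, was in 10 of the 75 (13.3%) and in 1.81% of the windows of all 27025 genes. The looser form GCGCNTGCG, which includes the first, was in 24 (32%) against 6.59%. The ETS core CCGGAAG was in 18 (24%) against 9.12%, and the YY1 letters AAGATGGCG in 7 (9.33%) against 1.49%. The 250 bases before the start are printed for the 2 assembly factors with the smallest F-test p-values below and for the cytochrome oxidase gene that rose, with NRF1 or ETS letters in capitals. They lie at chr4:24897833-24898082 (plus strand), chr2:119662835-119663084 (minus strand) and chr7:4753095-4753344 (minus strand) of GRCm38.p6.
Ndufaf4: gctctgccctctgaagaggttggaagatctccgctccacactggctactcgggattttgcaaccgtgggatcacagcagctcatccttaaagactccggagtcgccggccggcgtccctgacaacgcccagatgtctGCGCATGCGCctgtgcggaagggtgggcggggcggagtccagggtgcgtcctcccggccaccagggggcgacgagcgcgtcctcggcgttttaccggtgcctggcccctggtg
Ndufaf1: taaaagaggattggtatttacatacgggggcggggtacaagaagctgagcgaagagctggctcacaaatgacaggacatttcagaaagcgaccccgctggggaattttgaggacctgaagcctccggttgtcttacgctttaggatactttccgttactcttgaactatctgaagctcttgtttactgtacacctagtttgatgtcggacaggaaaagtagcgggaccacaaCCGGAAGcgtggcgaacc
Cox6b2: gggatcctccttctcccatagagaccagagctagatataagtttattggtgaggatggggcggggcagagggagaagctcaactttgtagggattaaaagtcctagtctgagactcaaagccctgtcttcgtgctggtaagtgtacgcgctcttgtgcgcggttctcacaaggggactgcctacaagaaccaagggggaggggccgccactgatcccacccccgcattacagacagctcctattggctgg
Ndufaf4 holds the NRF1 letters, Ndufaf1 holds the ETS core near its start, and Cox6b2 holds none of the letters searched in these bases. A match is letters only, and binding was not measured.

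In untreated cells at 0 h, the beta and alpha subunits of ATP synthase stood at the top. Atp5b, the catalytic beta subunit, had a mean of 487 ± 7.82 FPKM, and Atp5a1, the alpha subunit, 331 ± 7.28 (both SD, n = 3). In complex IV, Cox8a and Cox4i1, the form of subunit IV found in most tissues, were highest at 323 ± 152 and 321 ± 122 FPKM. The highest gene of complex III was Uqcr10 (194 ± 79.5), of complex II the membrane anchor Sdhd (109.6 ± 14.6), and of complex I the accessory subunit Ndufb6 (88.03 ± 39.3). Ndufb6 had 64.9, 65.7 and 133 in replicates 1, 2 and 3, and it ranked first by its mean only through replicate 3. Assembly factors were lower: the highest was Ndufaf1 at 18.6 ± 2.23 and the lowest Ndufaf7 at 4.67 ± 0.239. Only 3 members were under 1 FPKM in any library: Ndufs6b (at 1 or more in 11 libraries), Ndufa4l2 (10) and Cox7b2 (9). Tissue-specific forms known from other organs were low, with Cox6a2 at most 0.384, Cox8b at most 0.187, Cox4i2 at most 1.19 and Cox8c at most 1.56 FPKM in any library. Ndufs5, at 2.80 to 11.6 FPKM, is uncertain, because its named copy Ndufs5-ps was listed at a mean of 106 FPKM. Ndufa12-ps (80.8) and Cox5b-ps (23.3) could likewise share reads with their parent genes. Ndufb1-ps was listed at a mean of 12.2 FPKM, but no gene named Ndufb1 was listed beside it, and the suffix kept it out of the members.

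Differences were tested with limma across all 13614 genes, and a gene was called changed at a Benjamini-Hochberg adjusted p below 0.05. All changes below are differences of mean log2(FPKM + 1), which understate the change of low genes. At 0.5 h and at 2 h, 0 of the 92 passed. The median change of the 92 at 0.5 h was -0.31, with 86 below 0, where the median of all genes was 0.05. Without the 4 libraries it was -0.03, with 55 below 0. In 17 members all 3 libraries of 0.5 h were below all 3 untreated ones, against 4.41% of all genes. The shares of all genes called higher and lower at 0.5 h were 0.0147% and 0.0661%, and at 2 h 0.499% and 0.566%; at an unadjusted p below 0.05, 20 members were counted at 0.5 h (21.7%, against 9.93% of all genes) and 1 at 2 h (1.09%, against 7.59%). At 4 h, 4 members rose and 2 fell, against 14.2% and 12.1% of all genes. At 6 h, 1 rose and 6 fell (all genes 22.3% and 20%). At 8 h, 1 rose and 5 fell (29.2% and 11.6%), and at 10 h, 1 rose and 13 fell (22.2% and 9.43%). At 24 h, 0 rose and 11 fell, against 8.63% and 4.28%. Between the untreated groups 0 members passed (all genes 0.426% higher and 0.279% lower), with 3 at an unadjusted p below 0.05 (3.26%, against 9.44% of all genes). Over all 9 groups, 24 of 92 varied by limma's F-test, against 64.3% of all genes.

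The counts from 4 h to 10 h differed without the 4 libraries. At 4 h, 58 members rose and 2 fell, where 22.9% and 27.7% of all genes were called. At 6 h, 24 rose and 7 fell (25.4% and 30.7%), at 8 h 10 rose and 13 fell (30.7% and 17.6%), and at 10 h 3 rose and 29 fell (25.6% and 14.2%). Between the untreated groups 66 rose and 2 fell (11.7% and 18.4%), the effects at 24 h and 10 h differed upward in 3 and downward in 19 (13.5% and 13.4%), and 88 of 92 varied over the groups (88.8%). The median change of the 92 genes was -0.03 at 4 h with all libraries and 0.26 without the 4, where the median of all genes moved from 0.01 to -0.02. At 10 h it was -0.28 and -0.15, with all genes at 0.11 and 0.07. After a correction for transcript GC and length, with all libraries, it was -0.0051 at 4 h and -0.22 at 10 h. The 4 h libraries also held GC-rich transcripts high. Over all genes, the slope of a library's deviation per 10 points of GC was 0.12, 0.04 and 0.08 in 4 h replicates 1, 2 and 3. It was -0.12, -0.08 and 0.28 in untreated 0 h replicates 1, 2 and 3, and 0.12 in 8 h replicate 3. The 82 ribosomal protein genes had 1 gene higher at 4 h with all libraries and 68 higher without the 4; the part of library composition in these counts was not tested. Of the 34 member results that were called and involve untreated 0 h, 16 were lost when untreated 0 h replicate 3 alone was left out. Without all 4 libraries, where the spread between replicates is estimated without them, 44 of the 45 calls of members were kept and that of Ndufaf6 at 6 h was lost. The calls that held under every alternative tried were those of Ndufaf4 at 4 h and 6 h, Ndufaf5 at 6 h, Ndufaf1 at 8 h and Sdhc at 24 h.

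**Figure D2:**
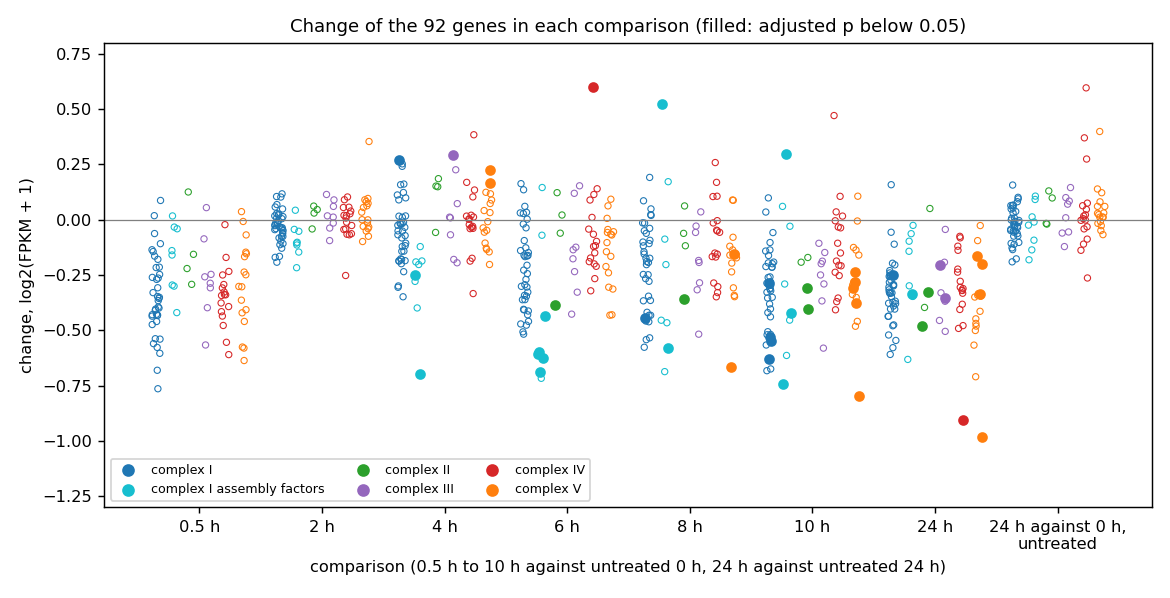
Change of each of the 92 genes, in log2(FPKM + 1), in the 7 treated comparisons and between the untreated groups, coloured by complex. Filled points passed limma's adjusted p of 0.05: 6 genes at 4 h, 7 at 6 h, 6 at 8 h, 14 at 10 h and 11 at 24 h. The filled points at 6 h are mostly assembly factors, and at 24 h nearly all points lie below 0.

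The complex I assembly factors, which build the enzyme but are no part of it, held most of the falls at 6 h: 5 of 8 fell, against 20% of all genes. Ndufaf4, a factor of the early assembly stages (chromosome 4, 24898083 to 24905001, plus strand, GRCm38), had 9.86, 9.24 and 10.1 FPKM in untreated cells at 0 h. It had 8.41, 8.55 and 9.27 at 0.5 h and 8.31, 8.16 and 8.21 at 2 h. At 4 h it had 5.41, 5.68 and 5.78 and at 6 h 5.74, 5.63 and 5.57. All 6 of these libraries lay below each of the other 21. Values were 8.97, 8.84 and 9.48 at 8 h and 9.59, 9.17 and 9.77 at 10 h, which overlapped untreated cells. The change was -0.70 (SE 0.055, adjusted p 3.79e-09) at 4 h and -0.69 (SE 0.055, adjusted p 1.77e-09) at 6 h; without the 4 libraries it was -0.67 (adjusted p 1.6e-08) and -0.67 (adjusted p 8.05e-09). At 24 h it had 8.80, 8.17 and 8.69 against 8.93, 10.2 and 9.57 in untreated cells of that time, which did not overlap, with a change of -0.14 (SE 0.055, adjusted p 0.0909).

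Ndufaf1, another early assembly factor (chromosome 2, 119655446 to 119662827, minus strand), moved in both directions. It had 20.3, 16.05 and 19.3 FPKM in untreated cells and 15.2, 14.8 and 16.2 at 4 h, where the groups overlapped slightly, and the change of -0.25 (SE 0.067, adjusted p 0.00784) was not called without untreated 0 h replicate 1 (-0.18, adjusted p 0.0586). At 8 h it had 25.8, 28.3 and 26.9, the 3 highest of the 27 libraries, a rise of 0.52 (SE 0.067, adjusted p 2.83e-06), or 0.56 (adjusted p 1.69e-05) without the 4 libraries. At 10 h it had 23.3, 22.7 and 22.9, still above every untreated library, with a change of 0.30 (SE 0.067, adjusted p 0.00186); under median-of-ratios scaling, which moved the median of all genes from 0.11 to -0.01 at 10 h, that rise was not called (0.15, adjusted p 0.171). At 24 h the groups overlapped, with 16.4, 17.4 and 16.98 in treated and 17.4, 17.6 and 16.8 in untreated cells. This was the single member whose effects at 10 h and 24 h differed by limma's contrast (all genes 2.95% higher and 5.75% lower). The difference between them was -0.32 (SE 0.095, adjusted p 0.0367), and it was called in 9 of 21 alternatives; leaving out any 1 of 10 of the 12 libraries lost it, all but untreated 0 h replicates 1 and 3.

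Ndufaf5, a methyltransferase-like factor that modifies the core subunit NDUFS7, fell from 6 h on. It had 7.94, 8.60 and 11.5 FPKM in untreated cells, 6.22, 5.72 and 5.37 at 6 h, 5.98, 4.97 and 6.69 at 8 h and 7.23, 6.17 and 6.54 at 10 h. None of these 9 treated libraries reached an untreated one. The change was -0.60 (SE 0.10, adjusted p 6.74e-05) at 6 h, -0.58 (SE 0.10, adjusted p 0.000125) at 8 h and -0.42 (SE 0.10, adjusted p 0.00342) at 10 h. Without the 4 libraries it was -0.45 (adjusted p 0.000104), -0.52 (adjusted p 9.79e-05) and -0.27 (adjusted p 0.0208). At 24 h, 7.33, 7.10 and 6.75 stood against 9.16, 8.82 and 9.50, again apart, with a change of -0.33 (SE 0.10, adjusted p 0.0366); leaving out any 1 of those 6 libraries lost this last call (adjusted p 0.0501 to 0.129).

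The other falls among assembly factors were not called without untreated 0 h replicate 3 alone, and those of Ndufaf3 and Ndufaf2 were called without the 4 libraries. Ndufaf3 had 5.50, 5.64 and 10.1 FPKM in untreated cells, 4.19, 3.27 and 4.85 at 6 h and 3.41, 3.35 and 4.31 at 10 h. The third untreated value was the highest of all, and the groups were apart at both times. The change was -0.63 (SE 0.20, adjusted p 0.013) at 6 h and -0.74 (SE 0.20, adjusted p 0.0061) at 10 h; without that library neither was called (-0.38, adjusted p 0.107 and -0.49, adjusted p 0.0525), and without the 4 libraries both were, at -0.38 (adjusted p 0.0239) and -0.58 (adjusted p 0.00428). Ndufaf2, an assembly chaperone, had 4.76, 4.41 and 9.71 and at 6 h 3.46, 3.32 and 3.88, a change of -0.61 (SE 0.19, adjusted p 0.0114), without the library -0.30 (adjusted p 0.101) and without the 4 libraries -0.30 (adjusted p 0.0276). It overlaps Smim15 on the opposite strand, and since the strand setting of the counting is not given, their reads may not be told apart. Ndufaf6 had 9.70, 8.07 and 14.4 and at 6 h 6.99, 7.70 and 7.70, a change of -0.43 (SE 0.14, adjusted p 0.0167), without the library -0.22 (adjusted p 0.145) and without the 4 libraries -0.22 (adjusted p 0.0871). Ndufaf7 and Ndufaf8 were not called at any time; their changes at 6 h were -0.070 (SE 0.082, adjusted p 0.525) and -0.72 (SE 0.32, adjusted p 0.0783).

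**Figure D3:**
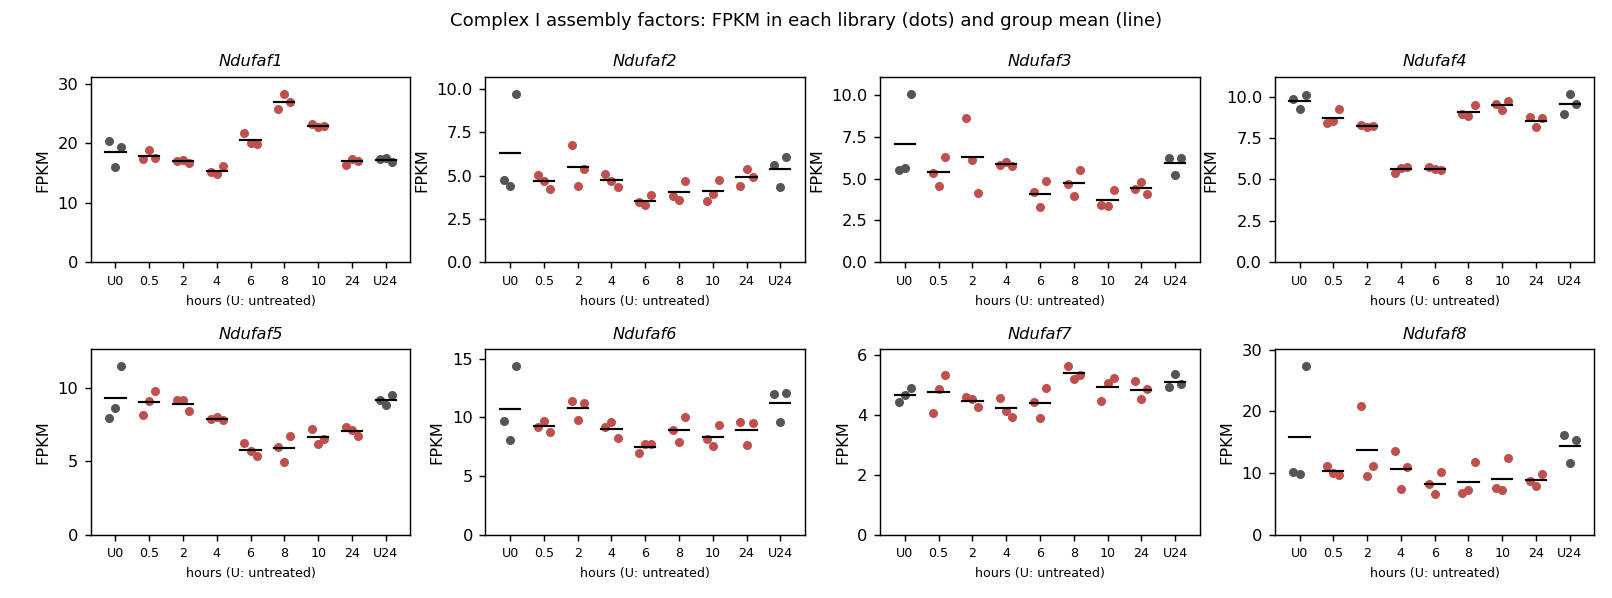
FPKM of the 8 complex I assembly factors in each library (dots, grey untreated, red treated) with the group mean (line), by hours after the start of exposure; U0 and U24 are untreated cells. Ndufaf4 is low at 4 h and 6 h only, Ndufaf1 peaks at 8 h, and Ndufaf5 is low from 6 h; the third untreated 0 h dot is the highest of its group for 7 of the 8 genes, all but Ndufaf1.

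Among the 38 complex I subunits, 1 rose at 4 h and 0 fell (all genes 14.2% and 12.1%), and 0 were called at 6 h (22.3% and 20%). At 8 h 1 fell, at 10 h 4 and at 24 h 1 (all genes 11.6%, 9.43% and 4.28% lower). Without the 4 libraries 21 rose and 0 fell at 4 h, 7 and 1 at 6 h, and 3 and 6 at 8 h. At 10 h 0 rose and 11 fell, and at 24 h 1 rose and 33 fell. Shares of all genes without the 4 libraries are given with the counts of all members. The riser at 4 h with all libraries was Ndufa10, an accessory subunit, with 32.9, 33.8 and 39.6 FPKM in untreated cells and 44.4, 41.3 and 42.6 at 4 h, no overlap and a change of 0.27 (SE 0.082, adjusted p 0.0182). It was not called with untreated 0 h replicate 1 left out (0.22, adjusted p 0.0841), replicate 2 left out (0.24, adjusted p 0.0665) or 4 h replicate 1 left out (0.24, adjusted p 0.0739), and without the 4 libraries it was 0.35 (adjusted p 1.89e-05). Ndufv2, an iron-sulfur subunit of the NADH-oxidizing module, had 45.6, 48.5 and 75.8 in untreated cells, 36.98, 38.5 and 46.03 at 8 h and 36.1, 36.1 and 41.9 at 10 h. Only at 8 h did the groups overlap, by 1 library, and the change was -0.44 (SE 0.14, adjusted p 0.0164) and -0.53 (SE 0.14, adjusted p 0.00693). Without untreated 0 h replicate 3 these became -0.22 (adjusted p 0.144) and -0.30 (adjusted p 0.0539), and without the 4 libraries -0.31 (adjusted p 0.00131) and -0.37 (adjusted p 0.000392).

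The accessory subunits Ndufb4 and Ndufc2 also fell at 10 h, with changes of -0.63 (SE 0.24, adjusted p 0.0495) and -0.55 (SE 0.19, adjusted p 0.032); Ndufb4 had 24.4, 26.5 and 53.7 FPKM in untreated cells against 19.2, 18.5 and 25.2, and Ndufc2 44.00, 46.1 and 91.5 against 35.8, 36.1 and 45.03. The third untreated value stood far above the rest in both, 1 treated library overlapped, and without untreated 0 h replicate 3 the changes were -0.28 (adjusted p 0.36) and -0.21 (adjusted p 0.272). Both were called without the 4 libraries, at -0.41 (adjusted p 0.0031) and -0.32 (adjusted p 0.0027). Ndufv1, which carries the flavin that accepts electrons from NADH, was not called at any time, and its change at 24 h was -0.32 (SE 0.11, adjusted p 0.0535). Ndufs1, the largest core subunit, had 19.9, 21.4 and 20.9 at 24 h against 18.1, 19.8 and 17.6. It was the only member with every treated library above every untreated one at that time, against 34.1% of all genes. Its change of 0.16 (SE 0.12, adjusted p 0.361) was not called.

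With all libraries, complex II showed falls in 3 of its 4 genes and none in the flavoprotein. The shares of all genes called lower were 20% at 6 h, 11.6% at 8 h, 9.43% at 10 h and 4.28% at 24 h. Sdhb, the iron-sulfur subunit, had 31.2, 32.5 and 45.8 FPKM in untreated cells, 28.7, 24.97 and 28.5 at 6 h, 26.6, 25.2 and 32.1 at 8 h and 26.5, 23.5 and 31.4 at 10 h. Only the 6 h group lay wholly below untreated cells. The changes were -0.38 (SE 0.14, adjusted p 0.0296), -0.36 (SE 0.14, adjusted p 0.0434) and -0.40 (SE 0.14, adjusted p 0.0307), and without untreated 0 h replicate 3 they were -0.21 (adjusted p 0.205), -0.19 (adjusted p 0.284) and -0.23 (adjusted p 0.211). All 3 were called without the 4 libraries, at -0.21 (adjusted p 0.0101), -0.29 (adjusted p 0.003) and -0.34 (adjusted p 0.00114). Sdhc, a membrane anchor (chromosome 1, 171127165 to 171150603, minus strand), had 25.6, 26.3 and 24.8 in treated cells at 24 h and 37.4, 33.3 and 37.5 in untreated ones. The groups did not overlap, and the change of -0.48 (SE 0.12, adjusted p 0.00915) stayed called in all 15 alternatives. At 10 h Sdhc had 26.1, 23.8 and 29.3 against 28.7, 29.8 and 41.4, overlapping in 1 library, with a change of -0.31 (SE 0.12, adjusted p 0.0467) of -0.15 (adjusted p 0.324) without untreated 0 h replicate 3, and of -0.22 (adjusted p 0.0309) without the 4 libraries. The other anchor, Sdhd, had 91.2, 91.2 and 96.3 against 119, 107 and 125 at 24 h, apart, with a change of -0.33 (SE 0.088, adjusted p 0.0176). Without untreated 24 h replicate 3 this was -0.28 (adjusted p 0.101). Sdha, the flavoprotein that oxidizes succinate, had 56.2, 57.5 and 56.2 against 53.9, 58.2 and 51.96, with the treated values inside the untreated range, and a change of 0.050 (SE 0.10, adjusted p 0.733). At 10 h it had 51.9, 47.9 and 45.2 against 62.4, 60.5 and 44.7; untreated replicate 3 was the lowest of all, and the change was -0.19 (SE 0.10, adjusted p 0.153), or -0.30 (adjusted p 0.00017) without the 4 libraries.

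In complex III, Uqcrc2, a core protein (chromosome 7, 120635176 to 120659524, plus strand), rose at 4 h and fell at 24 h. It had 68.1, 66.6 and 56.99 FPKM in untreated cells at 0 h and 75.9, 81.3 and 77.6 at 4 h, with no overlap and a change of 0.29 (SE 0.063, adjusted p 0.00121), or 0.21 (adjusted p 0.0012) without the 4 libraries. At 24 h it had 62.98, 60.2 and 60.3 against 69.3, 69.9 and 72.6, again apart, with a change of -0.20 (SE 0.063, adjusted p 0.0369) that any 1 library left out removed from the called genes (adjusted p 0.0593 to 0.139). Uqcrfs1, the Rieske iron-sulfur protein, had 64.4, 64.6 and 59.1 against 81.8, 73.9 and 86.1 at 24 h, apart, with a change of -0.36 (SE 0.11, adjusted p 0.0306). Without untreated 24 h replicate 3 it was -0.31 (adjusted p 0.136). The other core protein, Uqcrc1, had 91.2, 87.7 and 88.7 at 4 h against 68.9, 74.6 and 85.9, apart, and its change of 0.23 (SE 0.097, adjusted p 0.0968) was not called with all libraries; without the 4 it was 0.31 (adjusted p 0.000307). The remaining 5 genes were called at no time with all libraries.

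Of the 17 complex IV genes, 1 rose at 6 h and 1 fell at 24 h with all libraries, against 22.3% and 4.28% of all genes. The riser was Cox6b2, the form of subunit VIb known from testis (chromosome 7, 4751792 to 4753094, minus strand). It had 30.3, 34.3 and 67.9 FPKM in untreated cells, 65.8, 47.2 and 51.6 at 4 h, 69.9, 58.4 and 61.96 at 6 h and 50.9, 52.2 and 72.5 at 10 h. The third untreated value overlapped the treated ones, while the other 2 were below all of them. The change was 0.60 (SE 0.24, adjusted p 0.047) at 6 h and 0.47 (SE 0.24, adjusted p 0.136) at 10 h; without untreated 0 h replicate 3 the 6 h value was 0.95 (adjusted p 0.000743), and without replicate 1 it was 0.38 (adjusted p 0.22); the call was also lost without untreated replicate 2 and without each 6 h library (adjusted p 0.0642 to 0.158). Without the 4 libraries it was 0.73 (adjusted p 0.000108) at 4 h, 0.95 (adjusted p 4.03e-06) at 6 h and 0.66 (adjusted p 0.000995) at 10 h. At 24 h it had 35.1, 32.97 and 38.9 against 43.2, 33.01 and 37.1, overlapping, with a change of -0.075 (SE 0.24, adjusted p 0.832).

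A share within each library does not depend on a factor common to both genes, so Cox6b2 was also read as a percent of Cox6b1 plus Cox6b2, per length, a measure chosen after the values were seen. The share was 16.4, 17.6 and 16.7% in untreated cells at 0 h, with replicate 3 between the other two. It was 15.2, 16.6 and 18.1% at 2 h, 23.5, 20.7 and 20.2% at 4 h, 28.1, 23.9 and 25.8% at 6 h, 21.4, 19.5 and 19.9% at 8 h and 25.8, 24.7 and 24.7% at 10 h. All 12 libraries from 4 h to 10 h were above all 3 untreated ones. At 24 h, 17.98, 18.3 and 20.2% in treated cells stood against 17.8, 16.6 and 14.7%, closer but still apart. The mean share was 16.9% ± 0.610 (SD, n = 3) at 0 h and 26.0% ± 2.12 at 6 h. The two-sided exact permutation p was 0.1 at each time from 4 h to 10 h and at 24 h, the smallest that 3 against 3 allows. By the same test it was 0.8 at 0.5 h and 0.9 at 2 h. The ubiquitous partner Cox6b1 was called at no time with all libraries; its change was -0.034 (SE 0.25, adjusted p 0.951) at 4 h and -0.17 (SE 0.25, adjusted p 0.619) at 6 h, and without the 4 libraries 0.33 (adjusted p 0.0036) and 0.19 (adjusted p 0.0637).

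Other subunits of complex IV were not called from 0.5 h to 10 h. Cox4i1 had 242, 260.2 and 462 FPKM in untreated cells and 319.9, 334 and 327 at 6 h, a change of 0.089 (SE 0.19, adjusted p 0.747). Cox5a and Cox5b, the nuclear subunits around the catalytic core, had changes of -0.21 (SE 0.19, adjusted p 0.398) and -0.12 (SE 0.26, adjusted p 0.746) at 6 h. The supercomplex-linked gene Cox7a2l had 0.11 (SE 0.16, adjusted p 0.606), Cox7a2 -0.20 (SE 0.22, adjusted p 0.496), and Ndufa4 0.14 (SE 0.16, adjusted p 0.515). In each of these 6 the third untreated library was the highest of its group, and without the 4 libraries the changes of Cox4i1, Cox7a2l and Ndufa4 were 0.38 (adjusted p 0.000161), 0.36 (adjusted p 0.000756) and 0.38 (adjusted p 5.74e-05). Those of Cox5a, Cox5b and Cox7a2 were then 0.091 (adjusted p 0.264), 0.32 (adjusted p 0.00154) and 0.14 (adjusted p 0.271), so that all 3 values turned from below to above 0, and that of Cox5b was called. Cox7a1, the muscle form of subunit VIIa, was expressed here, with 5.44, 6.27 and 14.6 in untreated cells at 0 h and 10.3, 7.92 and 11.9 at 24 h. Cox7a1, Cox7a2 and Cox7a2l all passed the filter, whereas of the Cox8 forms Cox8a did and of the Cox6a forms Cox6a1. The share of Cox7a1 in the sum of Cox7a1, Cox7a2 and Cox7a2l overlapped its control group in every comparison (two-sided exact permutation p 0.2 to 0.9). At 24 h, Ndufa4l2, a paralog of Ndufa4 known as a hypoxia-responsive gene (chromosome 10, 127514967 to 127517154, plus strand), fell. It had 0.491, 0.414 and 0.652 in treated and 1.54, 1.52 and 2.56 in untreated cells, apart, with a change of -0.90 (SE 0.21, adjusted p 0.00721), and without untreated 24 h replicate 3 of -0.74 (adjusted p 0.0557). It had 0.590, 0.679 and 1.47 in untreated cells at 0 h, so that replicates 1 and 2 there lay in the range of treated cells at 24 h or just above it.

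In complex V, the alpha and beta subunits rose at 4 h and fell at 10 h and 24 h. Atp5a1 had 331, 339 and 324 FPKM before exposure, 372, 371 and 372 at 4 h, 335, 333 and 330.1 at 6 h, 288, 293 and 310.3 at 8 h and 280.5, 254 and 269 at 10 h. All values were above the untreated ones at 4 h, within them at 6 h, and below them at 8 h and 10 h. The changes were 0.17 (SE 0.050, adjusted p 0.0173) at 4 h, -0.16 (SE 0.050, adjusted p 0.0169) at 8 h and -0.31 (SE 0.050, adjusted p 8.56e-05) at 10 h. The 4 h call was lost without 4 h replicate 3 (0.16, adjusted p 0.0512), and the 8 h call without untreated 0 h replicate 2 (-0.14, adjusted p 0.0507), 8 h replicate 1 (-0.13, adjusted p 0.0779) or 8 h replicate 2 (-0.15, adjusted p 0.0591). Atp5b (chromosome 10, 128083273 to 128090391, plus strand) had 480.0, 485 and 495 in untreated cells, 574, 569 and 566 at 4 h and 409.5, 375 and 416 at 10 h. It too was above the untreated range at 4 h and below it at 10 h, with changes of 0.23 (SE 0.053, adjusted p 0.00235) and -0.28 (SE 0.053, adjusted p 0.000314). Without the 4 libraries the changes of Atp5a1 were 0.15 (adjusted p 0.00484) at 4 h, -0.20 (adjusted p 0.000946) at 8 h and -0.33 (adjusted p 1.63e-05) at 10 h, and those of Atp5b at 4 h and 10 h were 0.24 (adjusted p 7.49e-05) and -0.30 (adjusted p 3.32e-05). The rises at 4 h were not called under median-of-ratios scaling (0.11, adjusted p 0.19 for Atp5a1 and 0.17, adjusted p 0.0994 for Atp5b). At 24 h, Atp5a1 had 323, 326 and 327 against 379.8, 355 and 360.4 and Atp5b 445, 434 and 446 against 521, 494 and 508. Neither overlapped, and the changes were -0.16 (SE 0.050, adjusted p 0.0349) and -0.20 (SE 0.053, adjusted p 0.0157).

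Atp5c1, the gamma subunit that forms the rotating stalk, had 142, 137 and 178 FPKM in untreated cells and 115, 108 and 126 at 10 h, apart, with a change of -0.38 (SE 0.096, adjusted p 0.00479), or -0.32 (adjusted p 0.000139) without the 4 libraries. At 24 h it had 131, 128 and 133 against 171, 152 and 172, apart, with a change of -0.33 (SE 0.096, adjusted p 0.0262). Atp5pb, of the peripheral stalk, changed by -0.24 (SE 0.082, adjusted p 0.0333) at 10 h by -0.14 (adjusted p 0.207) without untreated 0 h replicate 3, and by -0.20 (adjusted p 0.00259) without the 4 libraries; it lies within a longer gene model, Atp5f1, on the same strand. Atp5e, the epsilon subunit of the central stalk (chromosome 2, 174461072 to 174464105, minus strand), had the lowest change of all members at 24 h with a pseudocount of 1; with 0.1 the lowest was that of Ndufa4l2, at -1.65 against -1.03 for Atp5e. It had 15.5, 15.1 and 11.9 in treated and 28.97, 25.5 and 32.2 in untreated cells, with no overlap, a change of -0.98 (SE 0.29, adjusted p 0.0317). In untreated cells at 0 h it had 14.95, 16.5 and 40.3, so that its 2 lower values there were near those of treated cells at 24 h. The call was lost without untreated 24 h replicate 3 (-0.90, adjusted p 0.12) and without each of the others but untreated replicate 2.

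The c subunit of the ATP synthase ring is coded by 3 genes that give the same mature protein, Atp5g1, Atp5g2 and Atp5g3. Atp5g1 had 25.98, 28.8 and 62.6 FPKM in untreated cells, 17.5, 22.1 and 29.00 at 8 h and 18.8, 19.4 and 23.2 at 10 h. At 8 h the groups overlapped through the third treated library, and at 10 h they were apart. The changes were -0.66 (SE 0.26, adjusted p 0.0465) and -0.80 (SE 0.26, adjusted p 0.0237), and without untreated 0 h replicate 3 -0.28 (adjusted p 0.361) and -0.41 (adjusted p 0.196). With the 4 libraries left out both were called, at -0.46 (adjusted p 0.00311) and -0.50 (adjusted p 0.0021). Atp5g2 and Atp5g3 were not called, with changes at 10 h of -0.28 (SE 0.23, adjusted p 0.37) and -0.48 (SE 0.20, adjusted p 0.071). The share of Atp5g1 in the sum of the 3 was 11.9, 12.9 and 14.2% in untreated cells, 12.01, 12.8 and 11.8% at 4 h, 10.99, 11.3 and 10.9% at 6 h, 8.47, 10.6 and 10.6% at 8 h and 10.1, 10.5 and 9.19% at 10 h. All 9 libraries from 6 h to 10 h were below the untreated ones (two-sided exact permutation p = 0.1, the smallest possible), while 4 h overlapped them. At 24 h it was 12.6, 11.8 and 12.01% in treated and 13.4, 12.3 and 13.1% in untreated cells, which overlapped (exact permutation p = 0.2).

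**Figure D4:**
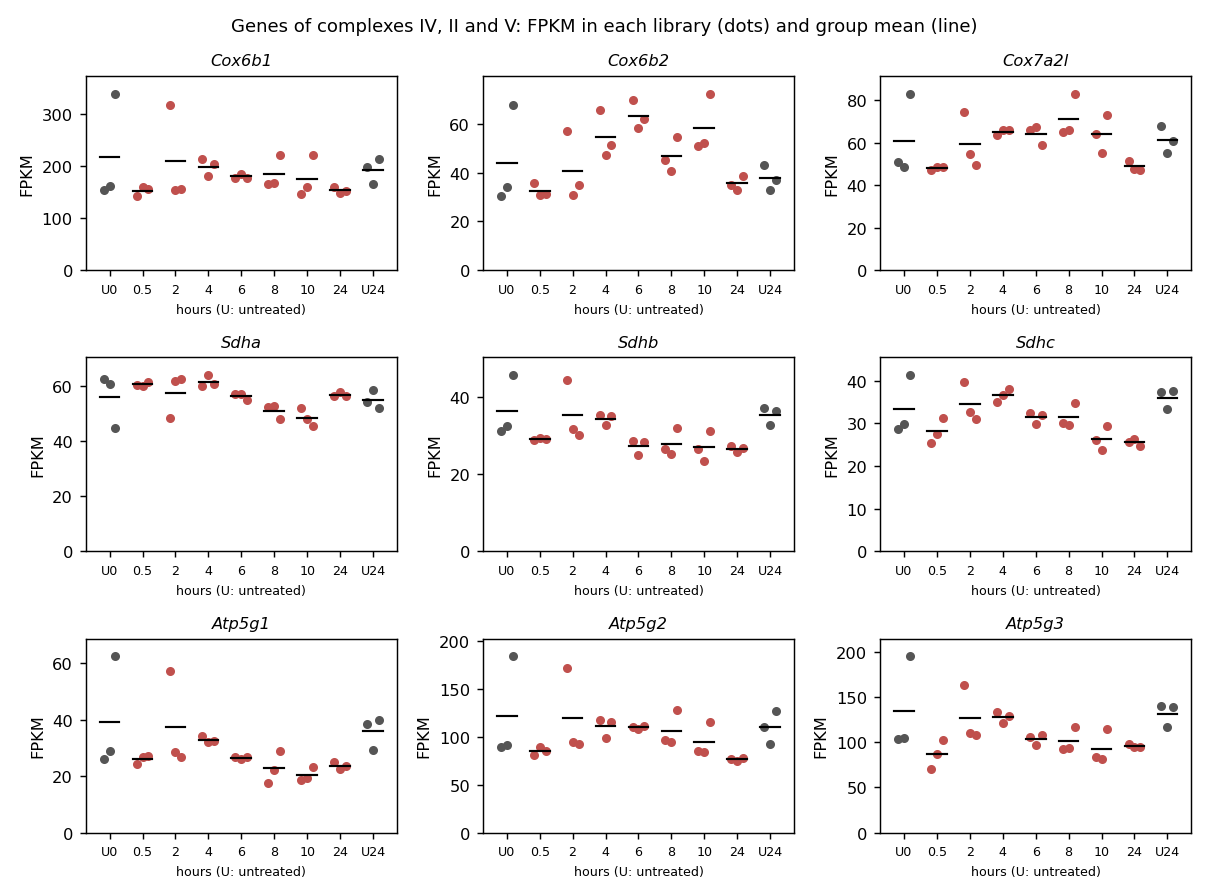
FPKM of genes of complexes IV, II and V in each library (dots, grey untreated, red treated) with the group mean (line), by hours; U0 and U24 are untreated cells. Cox6b2 is raised from 4 h to 10 h against the 2 lower untreated 0 h dots and Atp5g1 is lowest at 8 h and 10 h; the third untreated 0 h dot is the highest of its group in every panel but that of Sdha.

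At 24 h, the comparison matched in time, most members lay lower in treated cells. The change was below 0 for 90 of 92, with a median of -0.33 where the median of all genes was 0.07. In 69 members all 3 treated libraries were below all 3 untreated ones, against 19.4% of all genes. Only 11 passed limma's test, among them Atp5e, Ndufa4l2, Sdhc, Uqcrfs1, Ndufaf5, Atp5c1, Sdhd, Uqcrc2, Atp5b and Atp5a1. By complex, where 4.28% of all genes were called lower, 1 of 38 subunits of complex I, 1 of 8 assembly factors, 2 of 4 in complex II, 2 of 8 in complex III, 1 of 17 in complex IV and 4 of 17 in complex V fell. Median changes were close across them: -0.33 in complex I, -0.36 in II, -0.34 in III, -0.31 in IV, -0.35 in V and -0.22 for assembly factors. The spread used by this test is shared with the 4 libraries that stand apart; without them the medians were the same and 75 fell and 1 rose (18.2% and 33.1% of all genes), the riser being Ndufs1 at 0.16 (adjusted p 0.0132).

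The 24 h difference moved with the libraries as well. The median member was 0.21, 0.00 and 0.25 from its mean in untreated 24 h replicates 1, 2 and 3, and -0.16, -0.21 and -0.19 in the treated ones. In untreated 0 h replicates 1, 2 and 3 it was -0.12, -0.12 and 0.78, so treated 24 h libraries lay nearer to replicates 1 and 2 than untreated 24 h replicates 1 and 3 did. From untreated 0 h to untreated 24 h the median change of the members was -0.0023 with all libraries and 0.29 without the 4. The ribosomal protein genes had 0.21, -0.04 and 0.27 in untreated and -0.25, -0.32 and -0.28 in treated libraries, and their median change was -0.43 with 6 of 82 called lower. Leaving out untreated replicates 1 and 3 together with the 4 libraries, 20 members fell and 1 rose, against 5.73% and 12% of all genes, and leaving out untreated 24 h replicate 3 alone left 1 call. Of the 11 falls, 10 were lost without untreated 24 h replicate 3, 9 without replicate 1 and 3 without replicate 2, and 8, 9 and 7 without treated replicates 1, 2 and 3. The part that library composition has in this difference was not tested. A list of 16 hepatocyte markers also separated these groups, with a summed 48.0 to 64.1 FPKM in untreated and 1.30 to 1.85 in treated 24 h libraries, where Cyp2e1, Apoc3 and Mup3 were at 0 in all 3. The sum ranged from 1.58 to 7.49 in untreated cells at 0 h, 52.0 to 73.2 at 0.5 h, 2.12 to 68.0 at 8 h and 1.40 to 2.26 at 2 h, 4 h and 10 h. It was 52.2 in 6 h replicate 3 and 1.77 and 1.78 in replicates 1 and 2, and the median member in those was -0.016, -0.0079 and -0.019. The part of these other transcripts in the 24 h difference was not tested.

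**Figure D5:**
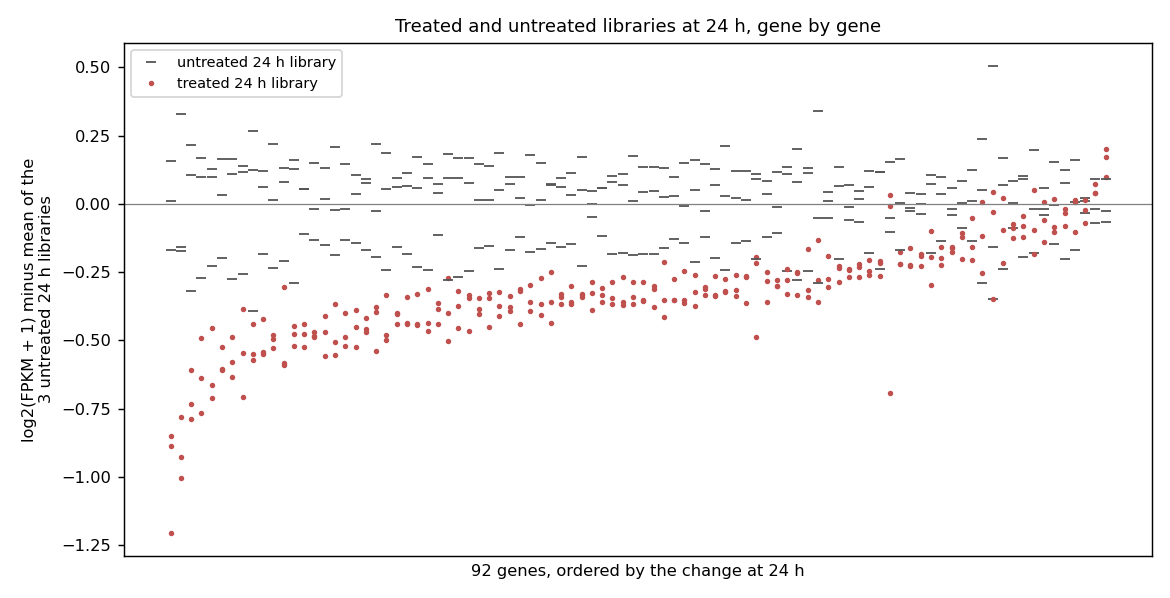
The 92 genes ordered by their change at 24 h, each with its 3 treated (red dots) and 3 untreated (grey bars) libraries, in log2(FPKM + 1) minus the mean of the untreated 24 h libraries. Red dots lie below 0 for most genes; in 69 genes all 3 dots are below all 3 bars, and the rightmost gene, Ndufs1, has all 3 above.

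In the authors' deposited table for 24 h, 78 members had a q-value below 0.05, all with a ratio below 1, while 18.8% of the 13614 genes had such a q-value and a lower ratio. The authors' deposited table marks 2 of them, Atp5e (ratio 0.491, q = 1.67e-15) and Ndufa4l2, as significant. In the authors' deposited tables for other times, q-values below 0.05 were reached by Ndufaf4 at 4 h (ratio 0.578, q = 0.000147; 6.5% of all genes had a lower ratio at that threshold), Ndufaf4 and Ndufaf5 at 6 h (12.1%), Ndufaf5 at 8 h (7.24%) and Ndufaf3 at 10 h (3.87%).

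Genes that work with the chain were read from lists. Among 78 mitochondrial ribosomal protein genes, 2 rose and 36 fell at 6 h (7 and 39 without the 4 libraries) and 0 rose and 29 fell at 10 h, with Mrpl55 at -1.19 and Mrpl9 at 0.33 as the extremes of the called genes at 6 h. Among 45 other chain and assembly genes, 7 rose and 12 fell at 6 h: Sco2, a copper chaperone of complex IV, rose by 0.84 (SE 0.14, adjusted p 4.42e-05) and Cox20, another complex IV factor, fell by 0.88 (SE 0.26, adjusted p 0.00928). Without untreated 0 h replicate 3, Cox20 was at -0.47 (adjusted p 0.0848), and without the 4 libraries also at -0.47 (adjusted p 0.0347). Of 13 coenzyme Q synthesis genes 0 rose and 4 fell at 6 h, and Coq3 fell by 0.71 (SE 0.10, adjusted p 4.39e-06). Of 24 import genes 1 rose and 7 fell, with Timm29 at 0.72 and Tomm5 at -1.001. Of 18 tricarboxylic acid cycle genes 3 rose and 1 fell at 6 h and 1 rose and 8 fell at 10 h. Among 16 regulators, Gabpb1 rose by 0.71 (adjusted p 3.77e-06) and the mitochondrial factor Tfb1m fell by 0.62 (adjusted p 1.36e-06) at 6 h, and Nrf1 fell by 0.37 at 4 h (adjusted p 8.25e-05). Of the other genes named so far from these lists, each stayed called without the 4 libraries. Without them 9 rose and 13 fell at 6 h among the other chain and assembly genes, 1 and 4 in coenzyme Q synthesis, 3 and 6 in import, 5 and 6 in the tricarboxylic acid cycle and 2 and 8 among regulators. The shares of all genes called at these times are those given above. Of the 13 mRNAs coded in the mitochondrial genome, which supply the other subunits, 2 rose and 5 fell at 6 h. The counts were the same without the 4 libraries, but the genes were not all the same. By limma at 6 h, mt-Nd4l was at 0.53 (adjusted p 0.0271) with all libraries and at 0.30 (adjusted p 0.133) without the 4. The largest called fall was that of mt-Nd3, at -1.64 (adjusted p 3.16e-06), and at -1.34 (adjusted p 5.95e-09) without the 4. At 24 h 2 rose and 0 fell (6 and 0 without the 4 libraries), where their median change was 0.25 and that of the nuclear members -0.33.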

How the data were processed

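Poly(A) RNA-seq of 27 libraries was read from 7 deposited tables, 1 per comparison, joined by gene identifier; 15 repeated columns were identical. The labels' protocols give stranded TruSeq mRNA libraries and paired-end NovaSeq sequencing, and tools named in the submitters' processing notes are HISAT2, StringTie, cutadapt, FastQC and edgeR, with build mm10. Their versions, the counting's strand setting and read totals were not in the sources at hand, so FPKM values carry an unknown depth. FPKM values, and the ratio (fold change), log2 ratio, p-value and q-value of each comparison, are as the authors deposited them.

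The filter asked for 1 FPKM in 3 or more libraries. On log2(FPKM + 1), limma 3.58.1 (R 4.3.3) was run with its trend option over the 27 libraries and a mean for every group (18 residual degrees of freedom). Benjamini-Hochberg adjustment ran over all 13614 genes within a comparison. Only the label "biological replicate" separates replicates, so p-values measure the spread between these samples. Share tests were exact permutation tests over libraries. Tables and plots used Python 3.11.15, pandas 2.3.3, numpy 2.4.6 and matplotlib 3.10.9, and the fit was tested on simulated data.

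Members and lists were chosen with earlier results of these data known. Genes named were a panel of catalytic and core subunits, the called gene with the largest rise and fall per comparison and complex, tissue isoform sets, the highest and lowest gene per complex in untreated cells, assembly factors that varied by the F-test, members called in both directions, and per related list the largest called rise and fall at 6 h; a few genes beyond these were named after their values were seen. The values of 1 gene are not reported here. The NRF1 letters were shortened by 1 base after a first search of the windows. Alternatives were a pseudocount of 0.1, no filter, median-of-ratios scaling, a GC and length correction, a replicate block, only the libraries compared, each library left out, and 4 or 6 libraries left out, the last chosen after seeing the data.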

Additional observations from a re-analysis of the deposited data

Results flagged for a closer look

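For Ndufaf1, the effect at 24 h (against untreated 24 h) and that at 10 h (against untreated 0 h) differed by -0.32 on the log2(FPKM + 1) scale (SE 0.095, limma adjusted p 0.0367). The value drew attention because the effects of treatment at these 2 times, each against its own untreated group, differed by a test of the difference itself. All 3 libraries at 10 h were above all 3 untreated ones, while the groups overlapped at 24 h. It was called in 9 of 21 alternatives. It was lost under median-of-ratios scaling (-0.25, adjusted p 0.235), with only the libraries compared (adjusted p 0.23), and with any 1 of 10 of the 12 libraries left out (adjusted p 0.051 to 0.0928), all but untreated 0 h replicates 1 and 3.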

How the results depend on the processing

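Counts of members called, higher and lower together, moved as follows. Shares of all genes called were computed only for the main fit, without the 4 libraries and, at 24 h, without 6. The other counts in this section have no such share beside them, so they cannot be set against all genes. With the GC and length correction they were 10 at 4 h, 17 at 6 h, 18 at 8 h, 25 at 10 h, 17 at 24 h, 4 for the effect difference (24 h effect minus 10 h effect), and 44 by the F-test. Under median-of-ratios scaling they were 3 at 4 h (1 higher, 2 lower), 17 at 8 h (1 and 16) and 25 at 10 h (0 and 25), and Uqcrc2 at 8 h became -0.14. Scaling moved the median of all genes at 8 h from 0.11 to -0.023. With no filter there were 1 at 2 h, 8 at 10 h and 7 at 24 h. With only the libraries compared, which leaves fewer degrees of freedom, there were 1 at 4 h, 2 at 6 h, 1 at 8 h, 0 at 10 h, 63 at 24 h and 0 for the effect difference. Without the 4 libraries there were 60 at 4 h, 31 at 6 h, 23 at 8 h, 32 at 10 h, 76 at 24 h, 68 between untreated groups, 22 for the effect difference and 88 by the F-test. Without 6 libraries, chosen after seeing the data, there were 21 at 24 h and 7 for the effect difference.

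Without the 4 libraries, members with a change below 0 went from 55 to 9 at 4 h, from 72 to 30 at 6 h and from 48 to 5 between untreated groups. Of the named genes, those that turned sign and were called there at 4 h were Cox5a (0.26), Cox5b (0.40), Cox6b1 (0.33), Atp5e (0.33), Atp5g1 (0.26), Atp5g2 (0.29) and Atp5g3 (0.29). At 6 h they were Ndufs1 (-0.15), Sdha (-0.13), Cox5b (0.32) and Atp5g2 (0.29), and between untreated groups Cox5b (0.33), Cox6b1 (0.28), Atp5g1 (0.37) and Atp5g2 (0.27). The cause was not tested.

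Leaving out 1 library gave 5 to 17 calls at 4 h, 4 to 16 at 6 h, 2 to 18 at 8 h, 7 to 28 at 10 h, 1 to 9 at 24 h, 0 to 8 for the effect difference and 20 to 45 by the F-test; at 0.5 h, 2 h and between untreated groups it gave 0.

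With the replicate number as a block the counts were 6 at 4 h, 9 at 6 h, 8 at 8 h, 18 at 10 h, 14 at 24 h and 26 by the F-test, and it kept all 45 calls. The block with the GC and length correction gave 12 at 4 h, 19 at 6 h, 19 at 8 h, 31 at 10 h, 20 at 24 h, 5 for the effect difference and 48 by the F-test. Deviations of same-numbered libraries correlated with r of -0.80 to 0.80 over 108 pairs (median 0.04, 35 over 0.1), and 15 of 27 libraries correlated best with their own number, so the numbers were not taken as pairs. FPKM gives no read number, so the precision of low genes such as Ndufa4l2 is unknown.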
